A study of Mus musculus with 6 samples.

Results

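The SOX transcription factors are DNA-binding proteins named after the sex-determining gene SRY. The genes were taken from a list of 10 members, Sox2, Sox3, Sox4, Sox5, Sox6, Sox8, Sox9, Sox10, Sox11 and Sox21, and each was kept where its symbol was a row of the deposited expression table. Of these, 9 were rows of that table, out of 13069 genes, and Sox10 was not analysed here. A further 4 SOX family genes of the table, Sox1, Sox7, Sox12 and Sox13, are given beside them.

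RNA sequencing of mouse glioblastoma (GBM) neurospheres, tumour cells grown as floating spheres in neural stem cell medium with FGF and EGF, gave 3 libraries labelled ATRX knockout (ATRX KO, line code C54B) and 3 labelled ATRX wild type (ATRX WT, line code C39E). Both groups came from tumours started in the ventricles of neonatal C57BL/6 or FVB mice with Sleeping Beauty plasmids, which put genes into the host genome. The plasmids carried a short hairpin against p53 and NRAS in both groups, and a short hairpin against ATRX in one of them. The labels call the ATRX KO libraries a knockout whereas the protocol names the hairpin, and the mouse strain and age at harvest of each line are not given. Each genotype has 1 line code, so a difference between genotypes and one between lines cannot be told apart. The p-values therefore measure the spread between libraries, which may be technical.

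Every SOX protein holds an HMG box, a domain that binds a short core sequence in the minor groove of DNA and bends it. Most SOX proteins act with a partner factor bound at the adjacent site, and the partner decides much of the target choice. By likeness of the HMG box the family falls into lettered groups. SOXB1 factors keep neural progenitors undifferentiated, SOXC factors act in neurons and in mesenchyme, and SOXD and SOXE factors act together in cartilage and in glia. In glioblastoma, several of them are studied as factors of stem-like tumour cells.

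The libraries held 22177228 to 32477269 reads for ATRX KO and 34966108 to 38039847 reads for ATRX WT. Libraries of one genotype correlated at 0.997 to 0.998 across genes (Pearson, log2 RPKM), and libraries of different genotypes at 0.662 to 0.668, where genes are not independent replicates. RPKM divides reads by gene length and by library size, so it can be set side by side for different genes. A gene was tested when 3 or more libraries had a log2 RPKM of 0 or above. The test was limma, a linear model with shared variance, and 89.5% of 12201 tested genes passed an adjusted p of 0.05. Atrx, the targeted chromatin remodeller, was lower in ATRX KO but present, with 14.1, 16.6 and 17.1 RPKM in ATRX KO libraries against 22.3, 22.7 and 21.6 RPKM in ATRX WT libraries (log2 fold change -0.48, limma adjusted p = 0.00013).

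Of the 9 SOX members, 8 were lower and 1, Sox9, was higher in ATRX KO. All 9 passed the test, in a comparison where 43.6% of tested genes were called higher and 45.9% lower. In all 9 the 3 ATRX KO libraries lay apart from the 3 ATRX WT libraries, as they did for 90.5% of tested genes (ATRX KO below for 46.5% and above for 44%), so a call alone says little about these genes. In bulk RNA, fewer cells of a type and less RNA per cell cannot be told apart. The size of the differences varied widely, from a log2 difference of 0.79 below ATRX WT for Sox4 to no reads at all for Sox3. The median log2 fold change of the 9 was -2.02, against -0.02 over all tested genes, whose middle 50% lay between -0.72 and 0.64. Sox3, Sox6, Sox8 and Sox21 reached the test only through their level in ATRX WT and so had to differ, so neither the count of 9 nor the median is support for a shared direction. The 5 that reached log2 RPKM 0 in every ATRX KO library as well were Sox2, Sox4, Sox5, Sox9 and Sox11. When limma tested against a log2 difference of 1 in place of 0, 7 members passed, beside 32.6% of tested genes. Of them 7 were lower, beside 17.2% of tested genes, and 0 were higher, beside 15.4%. These 7 include Sox3, Sox6, Sox8 and Sox21, whose direction was fixed, so this count is no support for a shared direction either. The others that passed were Sox2, Sox5 and Sox11. Sox4 and Sox9 were the members that did not pass that test, each at adjusted p = 1 (unadjusted p = 1 and 0.42).

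**Figure D1:**
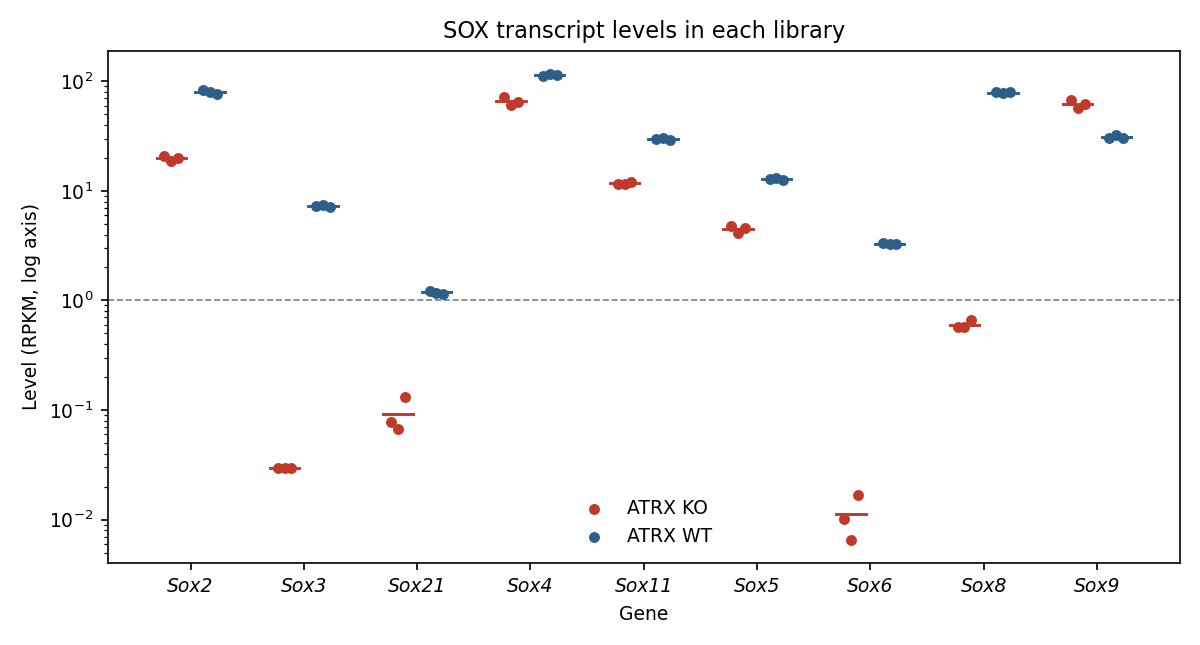
Level of the 9 SOX members in each library, in RPKM on a log axis, with ATRX KO points left of ATRX WT points, a bar at each group mean and a dashed line at 1 RPKM. Sox9 is the only one of the 9 whose ATRX KO points lie above its ATRX WT points, and Sox3 and Sox6 lie at or near the floor of the table in ATRX KO.

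**Figure D2:**
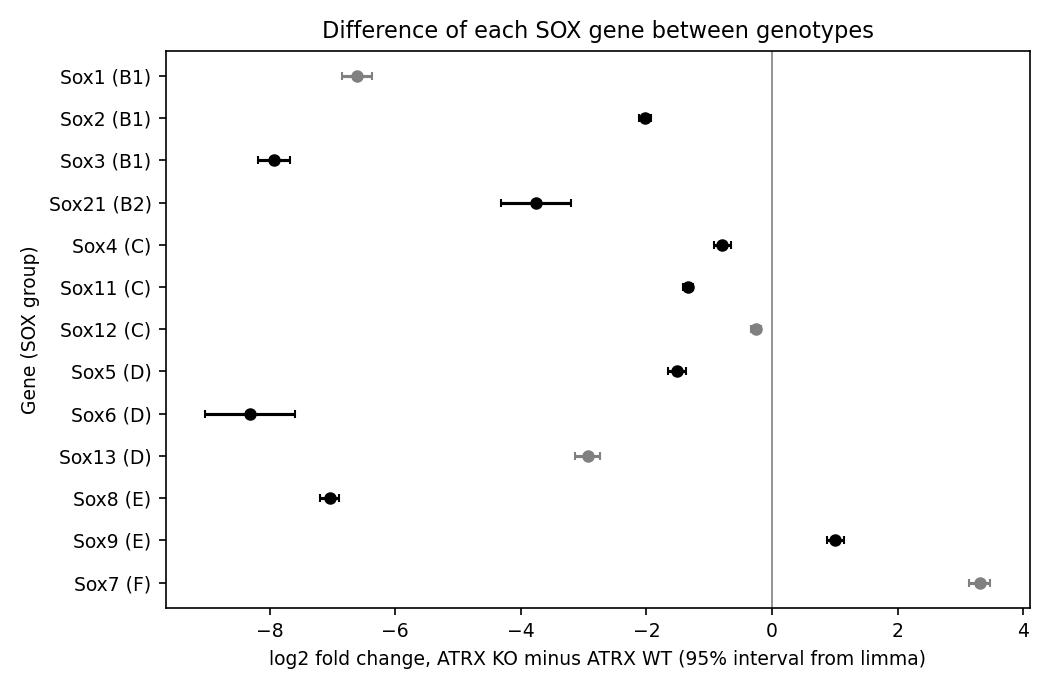
Difference of each SOX gene, ATRX KO minus ATRX WT, as a log2 value with its 95% interval from limma, ordered by SOX group, with listed members in black and the other family genes of the table in grey. Sox9 and Sox7 lie right of 0, and Sox1, Sox3, Sox6 and Sox8 lie left of -6.

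Sox2, Sox3 and Sox21 share nearly the same HMG box, and all 3 were lower in ATRX KO, by very different amounts. The start of the box is printed for them because it shows how closely the coding sequences match where short reads could be shared. The 90 bases of each come from the GENCODE M21 transcript on GRCm38, 5′ to 3′, and capitals mark bases that differ among the lines printed together:
Sox2 (chr3:34650554-34650643, plus strand): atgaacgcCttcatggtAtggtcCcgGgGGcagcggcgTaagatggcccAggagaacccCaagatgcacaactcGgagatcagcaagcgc
Sox3 (chrX:60892900-60892989, minus strand): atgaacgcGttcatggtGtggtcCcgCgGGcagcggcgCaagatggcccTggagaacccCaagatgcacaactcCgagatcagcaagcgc
Sox21 (chr14:118235513-118235602, minus strand): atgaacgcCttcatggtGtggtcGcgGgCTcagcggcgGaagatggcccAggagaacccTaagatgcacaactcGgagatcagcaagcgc
Sox2 matched Sox3 at 93.3% of these bases, and Sox21 at 93.3% as well. Over whole transcripts, no stretch of 42 bases, the read length, was shared by Sox2 or Sox21 with any other gene, and 4 of 2024 stretches of Sox3 were shared with Sox1.

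Sox2, the SOXB1 factor that keeps neural stem cells and glioma stem-like cells self-renewing, had 20.6, 18.7 and 20.1 RPKM in ATRX KO libraries, against 83.5, 80.2 and 77.4 RPKM in ATRX WT libraries. The highest ATRX KO library thus lay well below the lowest ATRX WT library. Sox2 (ENSMUSG00000074637.7, chr3:34650405-34652461) averaged 19.8 ± 0.979 RPKM in ATRX KO and 80.4 ± 3.06 RPKM in ATRX WT (SD, n = 3 each). This is 24.7% of the level in ATRX WT (log2 fold change -2.02, SE 0.044, limma adjusted p = 4.3e-10). In rank, Sox2 stood above 65.7% of the table's genes in ATRX KO and above 93.3% in ATRX WT. Sox2 lies on the plus strand inside the span of Sox2ot (chr3:34104270-34682619), a noncoding RNA gene of the same strand. No stretch of 42 bases of the GENCODE transcript of Sox2 occurred in a GENCODE transcript of Sox2ot. The gene model that the authors counted over is not given in the sources used here. Whether the exons of this pair overlap in that model was not checked, and reads could not be told apart where they did. Sox2ot had 17, 19 and 21 reads in ATRX KO libraries, against 176, 172 and 199 reads in ATRX WT libraries. It too was lower in ATRX KO (log2 fold change -2.54, SE 0.192, limma adjusted p = 1.7e-06).

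Sox3, the X-linked SOXB1 factor of early neural progenitors, had 0 reads in each of the 3 ATRX KO libraries, against 563, 622 and 582 reads in ATRX WT libraries. No ATRX KO library held a single read, so its listed 0.0298 RPKM there is the floor of the table. Sox3 (ENSMUSG00000045179.9, chrX:60891366-60893430) averaged 7.29 ± 0.154 RPKM in ATRX WT (SD, n = 3). Set against a floor of 3 reads over the ATRX KO group, Sox3 was at least 386-fold lower in ATRX KO (limma adjusted p = 3.8e-11). This floor and the intervals on reads below cover counting error only. Sox21, the SOXB2 factor that opposes SOXB1 activity and promotes neuronal differentiation, had 7, 5 and 9 reads in ATRX KO libraries, against 173, 179 and 169 reads in ATRX WT libraries. It was low in both genotypes. Sox21 (ENSMUSG00000061517.8, chr14:118233232-118237030) averaged 0.0914 ± 0.0343 RPKM in ATRX KO and 1.18 ± 0.0461 RPKM in ATRX WT (SD, n = 3 each), a log2 fold change of -3.76 (SE 0.241, limma adjusted p = 5.2e-07). Sox1, the remaining SOXB1 gene of the table, averaged 0.232 ± 0.0339 RPKM in ATRX KO and 22.5 ± 0.734 RPKM in ATRX WT (log2 fold change -6.60, limma adjusted p = 8.1e-11). Of the SOXB1 genes, Sox2 was thus the one that kept a level above 1 RPKM in ATRX KO.

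Sox4 and Sox11, SOXC factors that switch on neuronal genes and support survival of progenitors and mesenchymal cells, were lower in ATRX KO and stayed well expressed. Their boxes are shown because the coding sequences run alike over a longer stretch than a read, with capitals for the bases that differ:
Sox4 (chr13:28952746-28952835, minus strand): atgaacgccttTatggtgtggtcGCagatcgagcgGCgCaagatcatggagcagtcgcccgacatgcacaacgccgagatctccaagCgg
Sox11 (chr12:27342163-27342252, minus strand): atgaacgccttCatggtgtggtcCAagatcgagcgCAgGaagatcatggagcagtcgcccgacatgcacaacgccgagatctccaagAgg
These matched at 92.2% of bases, and 7 stretches of 42 bases occurred in both transcripts, out of 4754 in Sox4 and 8270 in Sox11. A read that falls there cannot be assigned to one gene by its own bases, though its mate of the pair may lie outside. These stretches are a small share of either transcript. Sox4 had 72.3, 60.4 and 64.7 RPKM in ATRX KO libraries, against 111, 117 and 113 RPKM in ATRX WT libraries. The groups lay apart, and ATRX KO libraries spread more than ATRX WT libraries. Sox4 (ENSMUSG00000076431.4, chr13:28948919-28953713) averaged 65.8 ± 6.05 RPKM in ATRX KO and 114 ± 2.87 RPKM in ATRX WT (SD, n = 3 each). Its log2 fold change of -0.79 was the smallest of the 9 members (SE 0.060, 95% interval -0.93 to -0.65, limma adjusted p = 1.6e-06). Sox11 had 11.7, 11.5 and 12.1 RPKM in ATRX KO libraries, against 29.5, 30.6 and 29.1 RPKM in ATRX WT libraries. Libraries of each group stood close together, with the ATRX KO libraries below. Sox11 (ENSMUSG00000063632.6, chr12:27334264-27342574) held 39.5% of its ATRX WT level in ATRX KO (log2 fold change -1.34, SE 0.036, limma adjusted p = 1.5e-09). Sox12, the other SOXC gene, differed least of the 13 family genes, with 13.01 ± 0.186 RPKM in ATRX KO and 15.5 ± 0.473 RPKM in ATRX WT (log2 fold change -0.25, limma adjusted p = 0.00015).

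Sox5 and Sox6 are SOXD factors, which bind DNA as dimers, hold no activation domain of their own, and adjust the output of SOXE factors in cartilage and in oligodendrocyte precursors. Both were lower in ATRX KO, by unlike amounts: Sox5 held 35.0% of its ATRX WT level, and Sox6 was nearly absent. Their boxes are printed to show that the coding sequences of these paralogs differ at more bases than those of the other groups:
Sox5 (chr6:143841178-143841267, minus strand): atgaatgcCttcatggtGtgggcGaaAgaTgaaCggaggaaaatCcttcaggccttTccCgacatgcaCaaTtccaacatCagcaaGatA
Sox6 (chr7:115489667-115489756, minus strand): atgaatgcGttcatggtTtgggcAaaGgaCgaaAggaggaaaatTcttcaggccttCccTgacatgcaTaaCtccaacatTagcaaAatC
They matched at 84.4% of bases, and no stretch of 42 bases was shared between them or with another SOX gene. Of 7202 stretches of Sox5, 23 occurred in genes outside the family. Sox6 shared none, but the transcript compared had 2903 bases, against the 9362 bases behind its RPKM. Sox5 had 4.76, 4.09 and 4.62 RPKM in ATRX KO libraries, against 12.9, 13.1 and 12.5 RPKM in ATRX WT libraries. No ATRX KO library came near the ATRX WT range. Sox5 (ENSMUSG00000041540.16, chr6:143828425-144781977) averaged 4.49 ± 0.351 RPKM in ATRX KO and 12.8 ± 0.309 RPKM in ATRX WT (SD, n = 3 each), a log2 fold change of -1.52 (SE 0.063, limma adjusted p = 2.4e-08). Sox6 had 1, 0 and 2 reads in ATRX KO libraries, against 1161, 1239 and 1222 reads in ATRX WT libraries. With 3 reads in all ATRX KO libraries together, only a ratio with a wide counting interval can be given. Sox6 (ENSMUSG00000051910.13, chr7:115470872-116038796) was 791-fold lower in ATRX KO by the ratio of summed reads over library sizes (95% interval 271 to 3840, limma adjusted p = 1.3e-08). Sox13, the remaining SOXD gene, averaged 0.384 ± 0.00889 RPKM in ATRX KO and 2.94 ± 0.123 RPKM in ATRX WT (log2 fold change -2.94, limma adjusted p = 2.8e-09).

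The SOXE genes Sox8 and Sox9 moved in opposite directions. SOXE factors direct neural crest, glial and cartilage development, and Sox9 and Sox8 can stand in for each other in part of these roles. Their boxes are printed because these paralogs are alike in sequence yet opposite in direction here:
Sox9 (chr11:112782909-112782998, plus strand): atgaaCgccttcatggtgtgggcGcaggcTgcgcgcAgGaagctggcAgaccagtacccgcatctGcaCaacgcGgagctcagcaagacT
Sox8 (chr17:25570127-25570216, minus strand): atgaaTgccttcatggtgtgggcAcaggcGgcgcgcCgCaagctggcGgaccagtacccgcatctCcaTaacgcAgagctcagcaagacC
They matched at 88.9% of bases. Sox8 shared no stretch of 42 bases with another gene, and 3 stretches of Sox9 occurred in Sox10 as well.

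Sox9, which drives the switch from neurons to glia in the embryonic neural tube and the formation of cartilage, had 68.1, 57.6 and 62.2 RPKM in ATRX KO libraries, against 30.6, 32.1 and 30.3 RPKM in ATRX WT libraries. Every ATRX KO library lay above every ATRX WT library. Sox9 (ENSMUSG00000000567.5, chr11:112782224-112787760) averaged 62.7 ± 5.26 RPKM in ATRX KO and 31.0 ± 0.966 RPKM in ATRX WT (SD, n = 3 each). That is 2.02-fold higher in ATRX KO (log2 fold change 1.01, SE 0.057, 95% interval 0.88 to 1.14, limma adjusted p = 2.1e-07). Sox8, which acts beside Sox9 and Sox10 in oligodendrocyte development, had 0.572, 0.568 and 0.664 RPKM in ATRX KO libraries, against 79.3, 77.7 and 79.7 RPKM in ATRX WT libraries. These are 50, 43 and 40 reads in ATRX KO libraries, against 8924, 9458 and 9478 reads in ATRX WT libraries. Sox8 was detected in every ATRX KO library, far below any ATRX WT library. Sox8 (ENSMUSG00000024176.10, chr17:25565892-25570686) was 131-fold lower in ATRX KO (log2 fold change -7.04, SE 0.066, limma adjusted p = 5.9e-12). Of all tested genes, 2.11% had a log2 fold change below -7, as Sox3, Sox6 and Sox8 had. The start of Sox8 overlaps 2810468N07Rik, a gene on the opposite strand that was also lower (log2 fold change -4.26, limma adjusted p = 2.1e-09). Whether counting used the strand is not given in the sources used here, so reads in the overlap are uncertain for both. Sox7, the SOXF gene of the table and a factor of blood vessel endothelium, averaged 6.48 ± 0.252 RPKM in ATRX KO and 0.652 ± 0.0298 RPKM in ATRX WT. It was 9.93-fold higher in ATRX KO (log2 fold change 3.31, limma adjusted p = 5e-10). With Sox9 it was 1 of 2 higher among the 13 family genes, where 11 were lower. Over all tested genes, 43.6% were higher and 45.9% lower. Sox1 and Sox13 reached the test only through ATRX WT, and Sox7 only through ATRX KO, so their directions were fixed. The count over the family is therefore no support for a shared direction.

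The make-up of the SOX transcripts changed with these differences. The summed level of the 13 genes was 185 ± 12.5 RPKM in ATRX KO and 400 ± 4.73 RPKM in ATRX WT (SD, n = 3 each). Sox9 made up 33.8% ± 0.564 of that sum in ATRX KO and 7.76% ± 0.159 in ATRX WT. Sox4 made up 35.5% ± 0.921 in ATRX KO and 28.4% ± 0.573 in ATRX WT, although its own level was lower in ATRX KO. Sox2 made up 10.7% ± 0.257 in ATRX KO and 20.1% ± 0.693 in ATRX WT. Sox8 made up 0.325% ± 0.035 in ATRX KO and 19.7% ± 0.499 in ATRX WT, and Sox1 0.126% ± 0.027 in ATRX KO and 5.62% ± 0.122 in ATRX WT. These shares add to 100% in each library, so one gene's share moves with the others.

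**Figure D3:**
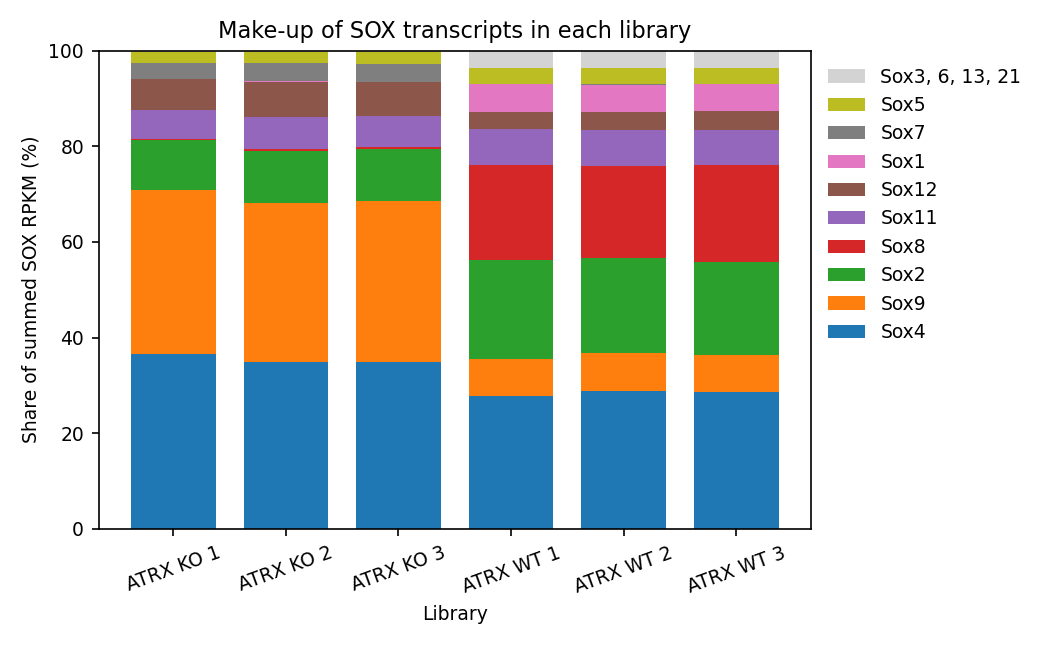
Share of each SOX gene in the summed RPKM of 13 SOX genes, in percent, for each library, with the 3 ATRX KO libraries left of the 3 ATRX WT libraries. Sox4 and Sox9 fill most of each ATRX KO bar, while Sox4, Sox2 and Sox8 fill most of each ATRX WT bar.

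In ATRX KO the order of levels ran Sox4, Sox9, Sox2, Sox12, Sox11, Sox7, Sox5, Sox8, Sox13, Sox1, Sox21, then Sox3 and Sox6 at or near the floor. The ranges of Sox4 and Sox9 overlapped there, and those of the other neighbours down to Sox21 did not. In ATRX WT the order ran Sox4, Sox2, Sox8, Sox9, Sox11, Sox1, Sox12, Sox5, Sox3, Sox6, Sox13, Sox21 and Sox7, with overlapping ranges for Sox2 and Sox8 and for Sox9 and Sox11. The top of both orders depends on the gene length used for RPKM. The deposited Sox4 values rest on a length of 2953 bases, against 4795 bases for its GENCODE transcript, and those of Sox2 on 2456 bases, against 2057 bases. Rescaled to the GENCODE lengths, a step added after seeing the data for the genes without introns, Sox4 stood at 40.5 ± 3.73 RPKM in ATRX KO and 69.9 ± 1.77 RPKM in ATRX WT. Sox2 then stood at 23.7 ± 1.17 RPKM in ATRX KO and 96.0 ± 3.65 RPKM in ATRX WT. Rescaled Sox4 lay below Sox9, which was not rescaled, in ATRX KO, and below rescaled Sox2 in ATRX WT. The authors counted reads over a gene model that is not given in the sources used here. Bases added by the GENCODE length may have held no counted reads, so the rescaled order is uncertain too. Fold changes between genotypes stayed as they were. Among ATRX KO libraries, Sox2, Sox4, Sox5 and Sox9 were each highest in library 1 and lowest in library 2; library 1 was the deepest, with 32477269 reads, and library 3, not library 2, the shallowest, with 22177228 reads. This pattern was chosen after the values were seen.

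The 9 members lie on 9 different chromosomes. The 5 nearest genes of the table on each side of each member gave 84 tested neighbours. Of these, 35 were higher, 41 lower and 8 without a call, where 43.6% of all tested genes were higher and 45.9% lower. The neighbours had a median log2 fold change of -0.07. Around Sox2 the neighbours had a median of -0.08, and Ccdc39 (log2 fold change -3.65) and Sox2ot were the ones that lay lower than Sox2. None of the tested neighbours of Sox6 or Sox8 lay as low as the SOX gene itself. All 7 called neighbours of Sox8 were nevertheless lower, among them Tekt4 at -5.51 and 2810468N07Rik, which overlaps Sox8. Around Sox4, 8 of 10 tested neighbours were lower and none was higher, and 5 lay lower than Sox4, with Gpld1 at -3.61. The neighbours of Sox3 included Slitrk2 at -8.02, which lay below Sox3 in fitted log2 fold change, and Gm364 at 6.50. Sox9 had Map2k6 at 2.27 and Kcnj16 at -8.92 on one side, and 5 of its 8 tested neighbours were higher. Sox5 had 5 higher and 5 lower neighbours, Sox11 had 6 higher and 4 lower, Sox21 had 7 higher and 3 lower, and Sox6 had 6 higher and 1 lower. Ccdc39, Sox2ot, Tekt4, Gpld1, Slitrk2 and Kcnj16 were tested only through ATRX WT and had to be lower. Further neighbours entered the test in the same way, so the counts around each member are no support for a shared direction.

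**Figure D4:**
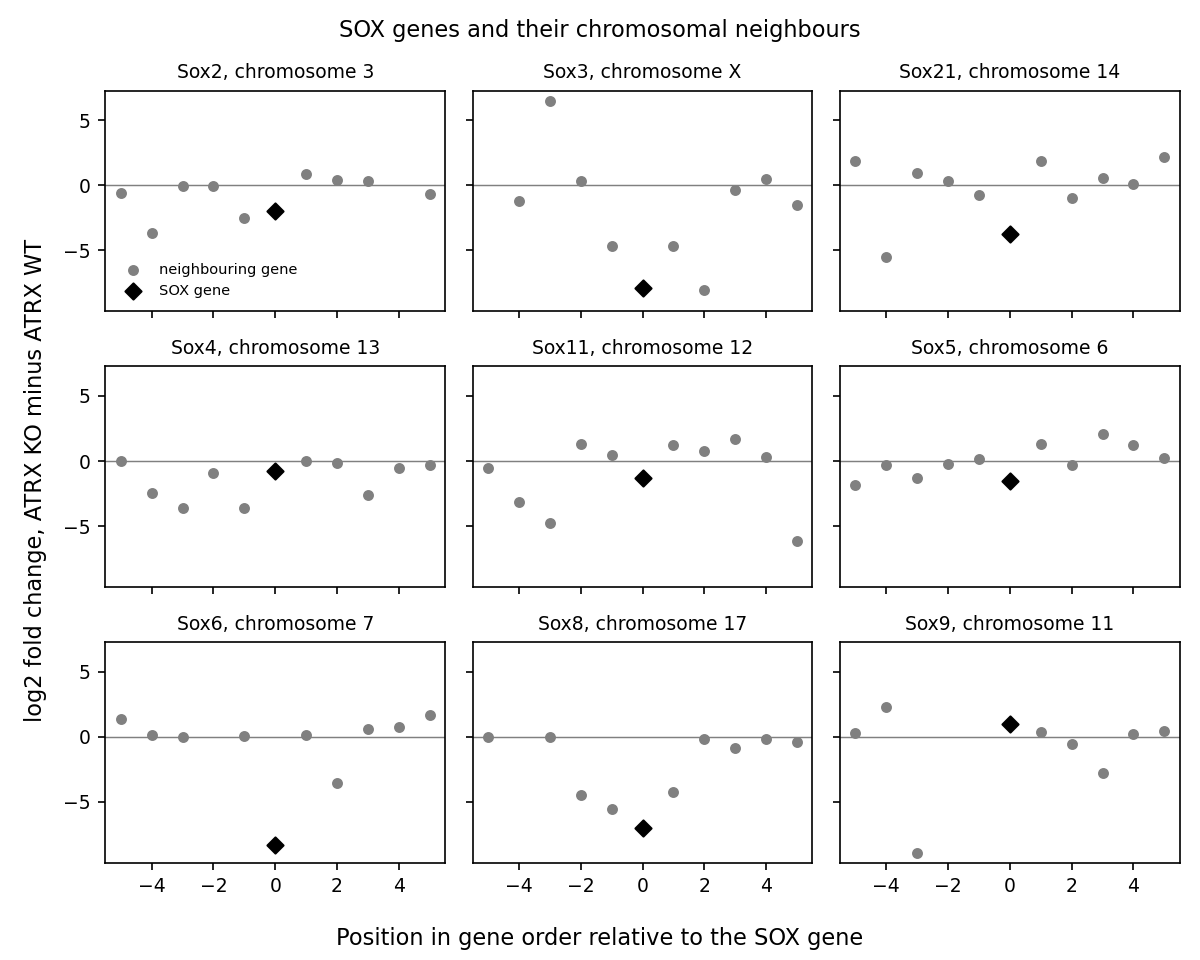
Log2 fold change, ATRX KO minus ATRX WT, of each SOX member (diamond at 0) and of the 5 genes of the table on each side (grey points), against position in gene order. The Sox6 and Sox8 diamonds lie below every neighbour, and the Sox4 diamond lies amid its neighbours.

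The promoters of 3 members are printed because Sox2, Sox5 and Sox8 were lower together by different amounts, and because SOX proteins are known to bind SOX genes. Each is the 250 bases before the start in RefSeq on GRCm38.p6, 5′ to 3′ on the gene's strand. Capitals mark the SOX core ACAAAG or ACAATG, searched on both strands:
Sox2 promoter (chr3:34649745-34649994, plus strand): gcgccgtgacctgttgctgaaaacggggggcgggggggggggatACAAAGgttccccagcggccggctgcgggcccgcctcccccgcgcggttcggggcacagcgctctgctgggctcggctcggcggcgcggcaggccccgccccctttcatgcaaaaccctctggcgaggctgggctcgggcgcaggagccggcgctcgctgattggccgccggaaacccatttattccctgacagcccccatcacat
Sox5 promoter (chr6:143947107-143947356, minus strand): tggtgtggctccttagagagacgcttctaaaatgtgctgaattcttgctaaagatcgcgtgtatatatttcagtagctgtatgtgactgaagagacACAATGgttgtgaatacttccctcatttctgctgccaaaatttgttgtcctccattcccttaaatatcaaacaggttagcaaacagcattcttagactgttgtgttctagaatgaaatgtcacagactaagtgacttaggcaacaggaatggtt
Sox8 promoter (chr17:25570687-25570936, minus strand): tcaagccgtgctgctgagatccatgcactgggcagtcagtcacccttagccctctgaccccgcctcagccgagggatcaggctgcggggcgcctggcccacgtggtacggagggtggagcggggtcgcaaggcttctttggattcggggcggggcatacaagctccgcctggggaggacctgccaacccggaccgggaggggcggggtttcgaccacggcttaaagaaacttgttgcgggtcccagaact
Sox2 held 1 match, ACAAAG at base -206, and Sox5 held 1, ACAATG at base -154, counted from the start in RefSeq. For Sox2 that start lies before the GENCODE start at chr3:34650405, so the match is further from the latter. The Sox8 window held neither, nor did those of Sox4, Sox11 and Sox21. Sox6 had 6 windows for alternative starts, of which 5 held a match, so 7 of the 12 windows of the members held one. ACAAAG occurred in 16.5% of 32851 promoters of the same length, ACAATG in 10.7%, and either in 25.2%, so a match is common. The Sox2 window was 72.0% G and C, the Sox8 window 65.6% and the Sox5 window 39.6%, against a median of 52.4% over all promoters. The Sox5 window lies inside the gene as GENCODE places it, before an internal start. RefSeq windows were found for 7 of the 9 members. A match is a run of letters only.

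Genes for DNA-binding partners of SOX factors were mostly lower in ATRX KO, where 45.9% of all tested genes were lower. Of 16 listed, 15 were tested: 3 were higher and 12 lower, with a median log2 fold change of -2.89, and 9 of the 15 averaged at least log2 RPKM 0 in ATRX KO, against 14 of them in ATRX WT. The 4 POU3 factors listed, which pair with SOX2 and SOX11 on neural enhancers, were lower by unlike amounts. Pou3f3 kept 19.1 ± 1.24 RPKM in ATRX KO, against 56.1 ± 0.668 RPKM in ATRX WT, and Pou3f1 2.00 ± 0.140 RPKM in ATRX KO, against 56.0 ± 0.948 RPKM in ATRX WT. Pou3f4, at 0 reads in ATRX KO and 2430 reads in ATRX WT, was at least 531-fold lower, and Pou3f2 fell by 6.72 on the log2 scale. Olig1 and Olig2, basic helix-loop-helix factors of the oligodendrocyte lineage, had 0 and 2 reads in ATRX KO, against 34221 and 24851 reads in ATRX WT. Olig1 was at least 7480-fold lower, and Olig2 8140-fold lower (95% interval 2250 to 67200). Pax3, a neural crest factor that acts with SOX10, went the other way, with 696 reads in ATRX KO, against 1 read in ATRX WT (ratio 1060, 95% interval 190 to 42000). Pax3 was tested only through ATRX KO and had to be higher. Olig1, Olig2, Pou3f2 and Pou3f4 were tested only through ATRX WT and had to be lower. Nfix rose by 0.82 and Pou2f1 by 0.72 on the log2 scale. Sox9 and its glial partner Nfia differed in direction, with Nfia at 3.99 ± 0.150 RPKM in ATRX KO and 5.74 ± 0.118 RPKM in ATRX WT (log2 fold change -0.52).

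Genes known as SOX targets differed with mixed direction, where 43.6% of all tested genes were higher and 45.9% lower. Many were tested only through their level in ATRX WT: 8 of 12 SOXB1 targets, 4 of 8 SOXC targets and 3 of 6 astroglial targets averaged at least log2 RPKM 0 in ATRX KO. Of 12 tested SOXB1 targets of neural progenitors, 3 were higher and 9 lower (median -1.82). Fabp7, a fatty acid binding protein of radial glia, had 4 reads in ATRX KO, against 247523 reads in ATRX WT. Lhx2 had 1 read in ATRX KO, against 2415 reads in ATRX WT, Six3 had 0 reads in ATRX KO, against 762 reads in ATRX WT, and Prom1 fell by 4.68 on the log2 scale. Higher ones included Gli3 (log2 fold change 3.28) and Gli2 (2.67), which carry the Hedgehog signal. Gli3 and Gli2 were tested only through ATRX KO and had to be higher. Of 8 tested SOXC targets, 7 were lower and Tead2 was higher, by 0.42 (median -5.88). The neuronal genes Dcx and Neurod1 had 0 reads in ATRX KO, against 3871 and 553 reads in ATRX WT, and Map2 fell by 6.00. Fabp7, Lhx2, Six3, Prom1, Dcx and Neurod1 were tested only through ATRX WT and had to be lower.

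Most tested targets of SOX9 were lower in ATRX KO, where Sox9 itself was higher. All 6 tested astroglial targets were lower (median -3.81), where 45.9% of all tested genes were lower. Among these targets were Aldh1l1 (log2 fold change -10.12) and the glutamate transporters Slc1a2 (-5.17) and Slc1a3 (-2.44). Mmd2 had 0 reads in ATRX KO, against 1362 reads in ATRX WT. Aldh1l1, Slc1a2 and Mmd2 were tested only through ATRX WT and had to be lower. Of 5 tested cartilage targets of SOX9, SOX5 and SOX6, 4 were lower, Fgfr3 (-3.74), Col9a3 (-3.73), Col27a1 (-2.14) and Col11a1 (-1.29), and Ctgf was higher (3.61). Ctgf was tested only through ATRX KO and Fgfr3 only through ATRX WT, so their directions were fixed. Col2a1, the main cartilage collagen and a direct SOX9 target, was too low to be tested, at 0.353 ± 0.0436 RPKM in ATRX KO and 0.145 ± 0.0188 RPKM in ATRX WT. Of 5 tested SOX10 targets, Pdgfra (3.21) and Mitf (2.76) were higher, while Cnp (-3.17), Myrf (-2.73) and Ednrb, with 0 reads in ATRX KO, against 5062 reads in ATRX WT, were lower. Here Mitf was tested only through ATRX KO, and Myrf and Ednrb only through ATRX WT. Of 8 genes for enzymes and transport factors that act on SOX proteins, 3 were higher, 3 lower and 2 without a call (median -0.01). Wwp2, a ubiquitin ligase whose gene hosts a microRNA and which binds SOX9, was higher by 1.08, and Carm1 and Setd7, methyltransferases that act on SOX2, by 0.71 and 0.46. Fbxw7, the ubiquitin ligase subunit that marks SOX9 for breakdown, was lower by a log2 fold change of -0.26. When libraries were scaled by their reads in the table, 5 of these 8 were lower.

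**Figure D5:**
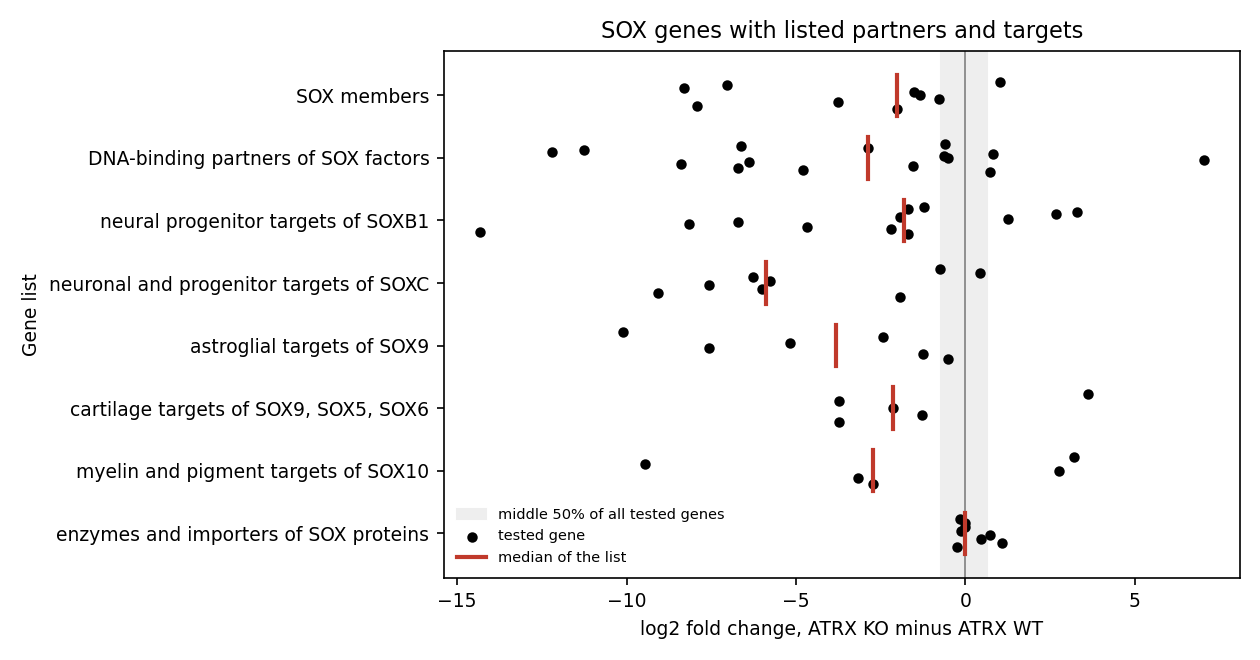
Log2 fold change, ATRX KO minus ATRX WT, of each tested gene in the SOX members and the partner, target and enzyme lists (points), with the list median (red bar) and the middle 50% of all tested genes (grey band). The astroglial points all lie left of 0, the other partner and target lists have points on both sides, and the enzymes and import factors lie close to 0.

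The label of neurosphere cells was checked against markers, since SOX levels differ between cell types. Of 8 tested GBM neurosphere markers, 7 were lower in ATRX KO and Cd44 was higher (log2 fold change 2.07, as are the values in parentheses after marker genes). Of these 8, 2 averaged at least log2 RPKM 0 in ATRX KO, against all 8 in ATRX WT, so the others were tested only through ATRX WT and had to be lower. Their summed level was 125 to 131 RPKM in ATRX KO, of which Cd44 made up 99.4 ± 1.87 RPKM, and 3176 to 3267 RPKM in ATRX WT, of which Fabp7 made up 2757 ± 38.3 RPKM. None was at 0 in ATRX KO, but Olig2 had 2 reads, Ptprz1 3, Fabp7 4 and Bcan 8 there, while Nes, like Sox2, was lower but present at 28.3 ± 1.87 RPKM, against 91.2 ± 2.34 RPKM in ATRX WT. Nes, Prom1 and Fabp7 stand among the SOXB1 targets too, and Olig2 among the partners. The labelled cell type rests on Nes and Cd44 in ATRX KO, the listed markers that averaged at least log2 RPKM 0 there. Of 9 tested fibroblast and pericyte markers, 8 were higher in ATRX KO and Rgs5 was lower, with a summed level of 1156 to 1284 RPKM in ATRX KO and 57.1 to 59.9 RPKM in ATRX WT. Of these 9, 8 averaged at least log2 RPKM 0 in ATRX KO, against 2 in ATRX WT, so most were tested only through ATRX KO and had to be higher. Col3a1 averaged 725 ± 43.5 RPKM in ATRX KO and 0.0558 ± 0.0204 RPKM in ATRX WT, and Lum had 3957 reads in ATRX KO, against 1 read in ATRX WT. The listed collagen gene Col1a2 was too low to be tested, at 0.635 ± 0.246 RPKM in ATRX KO and 0.0555 ± 0.0255 RPKM in ATRX WT. Des, also listed, was not analysed here. Of 5 tested neural crest and Schwann markers, 4 were higher, Pax3, Ets1 (2.30), Msx1 (2.05) and Tfap2a (1.38), and Cdh19 was lower (-5.27), with 66.8 to 69.8 RPKM in sum in ATRX KO and 22.8 to 23.3 RPKM in ATRX WT. Pax3 was tested only through ATRX KO and Cdh19 only through ATRX WT, so their directions were fixed. Of 7 listed endothelial markers, 3 were tested, and 2 of these were higher, Cdh5 (7.19) and Emcn (5.41), and Esam was lower (-4.28), with 14.6 to 16.6 RPKM in ATRX KO and 2.15 to 2.67 RPKM in ATRX WT. Cdh5 and Emcn were tested only through ATRX KO and Esam only through ATRX WT, so these directions were fixed as well. Kdr was too low to be tested, at 0.253 ± 0.0341 RPKM in ATRX KO and 0.304 ± 0.0472 RPKM in ATRX WT, and Pecam1, Tek and Cldn5 were not analysed here. Of 8 listed microglia and macrophage markers, Ptprc, Aif1, Cx3cr1, P2ry12, Csf1r and C1qa were not analysed here. The other 2, Tmem119 (6.04) and Cd68 (2.25), were higher, with 30.6 to 35.1 RPKM in ATRX KO and 5.60 to 6.36 RPKM in ATRX WT. Tmem119 was tested only through ATRX KO and had to be higher, while Cd68 reached log2 RPKM 0 in both genotypes. The part of these markers in the SOX differences was not tested.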

How the data were processed

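The deposited table gives log2 RPKM, as computed by the authors, for 13069 genes in 6 libraries. Per the labels' protocols, stranded mRNA libraries (4 ug of total RNA each) were sequenced paired-end with 42-nt reads. STAR 2.5.3a, HTSeq 0.11.2, edgeR 3.20.9, Trim Galore and FastQC are named per the submitters' processing notes, as are the builds mm9 and mm10, with no role for either. The counting options and the authors' filter are not given in the sources used here. Whole reads were recovered from the steps of the log2 values for 100% of genes (tolerance 0.0001 reads), with a mean prior count of 2 reads. The 3 ATRX KO libraries held 32477269, 27998458 and 22177228 such reads, and the 3 ATRX WT libraries 34966108, 38039847 and 37004282.

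The log2 RPKM values of 12201 genes entered the linear model of limma 3.58.1, run in R 4.3.3 (empirical Bayes with trend, two-sided, Benjamini-Hochberg adjustment over all tested genes, threshold 0.05), and 868 low genes were left out. Each log2 fold change is ATRX KO minus ATRX WT. A group with 0 reads is given as a bound against 3 reads over the group, and one with 1 to 3 reads as a ratio of summed reads over library sizes with a 95% counting interval. The fit was tested on simulated data. Alternatives covered the filter, pseudocount, scaling, variance model, replicate block, limma voom on the recovered reads, and each library left out.

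The members and lists were chosen with earlier results of these data known, so lists are described by counts and medians. Named genes were all SOX genes, up to 4 higher and 4 lower genes per list, and the extreme or overlapping neighbours of each member; 1 gene under this rule is not reported here. Nfia, Nes, Col2a1, Col1a2, Pou3f1, Pou3f3, Kdr, and the counts of reads in low markers, were named after their values were seen. Positions are from GENCODE M21 on GRCm38, which gave 1 position for 12598 symbols, and promoters from RefSeq on GRCm38.p6. Figures were drawn with Matplotlib 3.10.9.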

Additional observations from a re-analysis of the deposited data

How the results depend on the processing

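All 13 SOX genes kept their direction and their call in the settings that test against no change (14 each, 13 for Sox21, which the stricter filter removed). Across these, the log2 fold change ran from 0.81 to 1.07 for Sox9, from -0.99 to -0.73 for Sox4 and from -2.22 to -1.97 for Sox2, and it ran more widely for low genes. Sox21 ran from -4.04 without ATRX KO replicate 3 to -0.9999, with -2.20 after quantile normalization; Sox3 ran from -9.58 with voom to -3.01, and Sox6 from -9.31 with voom to -2.09, the upper ends being log2(RPKM + 1). With limma testing against a log2 fold change of 1, added after seeing the data, Sox4, Sox9 and Sox12 lost their call (adjusted p = 1 each), 0 SOX members were higher and 7 lower, and 3980 genes passed, 1880 higher and 2100 lower, in place of 10925. Scaling by reads in the table moved the median of all tested genes by -0.20 on the log2 scale, gave 11077 calls and lowered the share of higher calls to 39.6%, against 48.7%. Leaving out each library in turn gave 10645 to 10947 calls over all genes. The replicate block gave 10851 calls. Deviations of same-numbered libraries correlated at -0.05, 0.05 and -0.04, and those of unlike numbers at -0.09 to 0.12. Whether same-numbered libraries shared a culture or a day is not given in the sources used here. Limma voom on the recovered reads gave 11006 calls. Without the filter, SOXC targets had 2 higher, cartilage targets 2 higher and 7 lower, and SOX10 targets 5 lower, since more genes were tested; under the stricter filter, Sox2ot and Esam were not tested, leaving 0 lower noncoding RNAs and 0 lower endothelial markers. Depth limits Sox3 and Sox6 in ATRX KO to a bound and a wide interval.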
